A study of Rattus norvegicus with 43 samples.

Results

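Purine nucleotides are broken down step by step: 5′-nucleotidases strip the phosphate, adenosine deaminase turns adenosine into inosine, purine nucleoside phosphorylase releases the base, guanine deaminase and xanthine dehydrogenase lead on to uric acid, and in rats urate oxidase turns uric acid into allantoin, the end product in most mammals. Competing salvage enzymes return adenosine or free bases to the nucleotide pool. The genes followed here in rat foreskin were Ada, Allc, Pnp, Adk, Xdh, Nt5e, Aprt, Hprt1 and Gda. These 9 genes were chosen by symbol, around Ada and Allc, which stood out in an earlier reading of the comparison of pups exposed to 500 mg/kg/day of dibutyl phthalate with controls on postnatal day 5. Of the 9 genes, 8 had a probe, and Xdh (xanthine dehydrogenase) is not analysed here. Aprt had 2 probes and the other 7 genes 1 each, so 9 of 22523 probes on the array were followed. All 9 were among the 13577 probes (60.3%) that passed the filter for tests, a detection p-value under 0.05 on at least 5 arrays. Of the 9 probes, 8 were detected on 43 of 43 arrays and that of Allc on 24 of 43.

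Dibutyl phthalate (DBP) is a plasticizer that lowers testosterone production in the fetal rat testis. Pregnant Sprague Dawley rats had been gavaged from gestational day 16 to day 20 with corn oil alone (control) or with DBP at 100 mg/kg/day (DBP100) or 500 mg/kg/day (DBP500). Foreskins of male pups were taken on gestational day 20 (GD20) or postnatal day 5 (PND5), and each array held 2 foreskins pooled from 1 litter, so the replicate is the litter and the spread between pups of a litter is not seen. At GD20 the doses were separate studies with controls of their own: 5 DBP500 and 6 control litters, and 5 DBP100 and 6 control litters. The PND5 pups came from 7 litters of each kind (control, DBP100 and DBP500), and the 2 exposed groups share their controls.

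Arrays had median signals of 102.9 to 193.2 intensity units and detected 44.5% to 53.6% of their probes. Maximum signals ran from 40825.6 to 55729.4 on GD20 arrays and from 15335.2 to 29459.1 on PND5 arrays, so the ages did not overlap in this scale. By maximum signal, the PND5 arrays also formed 2 sets, one of replicates 1 to 4 and one of replicates 5 to 7 of each group. Skin markers were present on every array: Krt14, the keratin of basal keratinocytes, averaged between 13.98 and 14.26 log2 units in the 7 groups, and Col1a1, a dermal collagen, between 14.21 and 14.44. In pooled tissue, fewer cells of a type and less RNA per cell cannot be told apart. All levels below are log2 normalized intensity, an intensity on 1 probe's own scale, so levels of different genes are not set against each other.

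The promoter windows of Ada and Allc are shown because these 2 genes were the ones that stood apart in exposed pups. Each window, from RefSeq on the rat build GRCr8, runs from 250 bases before the gene's start to the first 50 bases of the gene, in the direction of transcription. Capitals mark matches, on either strand, to 4 short motifs. These are GGGCGG, known as the GC box, TATAAA, known as the TATA box, CCAAT, known as the CCAAT box, and the hexamer TGTTCT, which forms part of the binding element of the androgen receptor. Ada lies at chr3:172842234-172842533 and Allc at chr6:50942565-50942864, both on the minus strand.
Ada: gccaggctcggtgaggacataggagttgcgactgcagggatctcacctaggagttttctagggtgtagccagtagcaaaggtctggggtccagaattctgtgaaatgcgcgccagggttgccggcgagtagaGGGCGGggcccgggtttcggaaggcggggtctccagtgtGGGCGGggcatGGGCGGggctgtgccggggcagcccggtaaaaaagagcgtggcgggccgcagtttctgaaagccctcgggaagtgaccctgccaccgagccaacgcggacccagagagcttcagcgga
Allc: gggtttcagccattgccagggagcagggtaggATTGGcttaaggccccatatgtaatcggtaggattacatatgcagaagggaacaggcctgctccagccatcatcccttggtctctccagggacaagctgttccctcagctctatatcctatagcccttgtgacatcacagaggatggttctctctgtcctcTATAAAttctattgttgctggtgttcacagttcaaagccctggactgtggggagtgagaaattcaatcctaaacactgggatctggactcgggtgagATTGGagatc
The Ada window had a GC content of 64.3%, above that of 81.5% of 27457 rat promoter windows, and held 3 GC boxes and no TATAAA. The Allc window had a GC content of 49.7%, below the median of 52.3%, and held 1 TATAAA, 2 matches to CCAAT on the opposite strand and no GC box. GGGCGG occurred in 34.9% of all windows, TATAAA in 14.3%, CCAAT in 37.7% and TGTTCT in 20.1%. Neither window held TGTTCT, and of the 8 members with a window only that of Hprt1 did. A match is a run of letters and not a mapped binding site.

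Ada encodes adenosine deaminase, which removes adenosine and deoxyadenosine by turning them into inosine and deoxyinosine. In PND5 controls its level ranged from 8.18 to 10.59, with a median of 9.80. In PND5 DBP100 litters it ranged from 8.89 to 11.25, with a median of 10.85. In PND5 DBP500 litters it ranged only from 10.57 to 11.18, with a median of 10.82. Of the 7 DBP100 litters 4 lay above the highest control. Of the 7 DBP500 litters, 6 lay above the highest control and the seventh, at 10.57, lay just under it. The spread within a group, as an SD, was 0.78 in controls, 0.85 in DBP100 litters and 0.23 in DBP500 litters.

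The mean level of Ada was higher than in controls by 0.84 ± 0.26 (SE) in DBP100 litters, a 1.79-fold difference, and by 1.26 ± 0.26 in DBP500 litters, a 2.39-fold difference. These values are a description with no test, because PND5 DBP500 and control arrays chose the gene. Their SE comes from 1 spread fitted over all 7 groups. With only the arrays compared, the SE was 0.37 for DBP100 and 0.26 for DBP500. DBP500 litters stood above DBP100 litters by 0.42, again with no test, and this difference was 0.16 without DBP100 replicate 5, the lowest value with 1 array left out. Within the 2 array sets the DBP500 difference was 1.29 ± 0.36 (replicates 1 to 4) and 1.21 ± 0.41 (replicates 5 to 7).

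At GD20 the Ada level was lower than in any PND5 litter, and exposed and control litters had similar ranges. It was 7.11, 7.50, 7.59, 7.75 and 7.52 in the 5 DBP500 litters, against 7.15 to 7.78 with a median of 7.53 in their 6 controls. It was 7.59, 7.76, 8.05, 7.77 and 7.59 in the 5 DBP100 litters, against 7.09 to 8.0 with a median of 7.74 in their 6 controls. The groups overlapped at both doses. The difference was -0.02 ± 0.30 for DBP500 (limma, adjusted p = 0.999, 95% interval -0.62 to 0.58) and 0.16 ± 0.30 for DBP100 (limma, adjusted p = 0.907, 95% interval -0.44 to 0.77). The SDs were 0.23 (DBP500) and 0.24 (its controls), and 0.19 (DBP100) and 0.39 (its controls). The SE and intervals use 1 spread over all 7 groups, so the wider PND5 control and DBP100 groups (SD 0.78 and 0.85) also enter them. The change of the exposure difference with age was not tested, because one side of it, the PND5 difference, chose the gene.

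Allc encodes allantoicase, known from animals such as fish and amphibians, where it splits allantoate, the product of allantoin breakdown. Its signal was near the background of the array. At PND5 it was detected in 3 of 7 controls, 7 of 7 DBP100 litters and 7 of 7 DBP500 litters. Its level ranged from 4.93 to 6.23 in PND5 controls (median 5.18), from 5.57 to 7.58 in DBP100 litters (median 6.51) and from 6.03 to 7.40 in DBP500 litters (median 6.99). Of the exposed litters, 4 of 7 at the lower dose and 6 of 7 at the higher dose lay above the highest control.

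The Allc level was higher than in PND5 controls by 0.97 ± 0.29 in DBP100 litters (1.95-fold) and by 1.29 ± 0.29 in DBP500 litters (2.45-fold), again as a description. Both are set against controls of which 4 of 7 were not detected, and both depend on the processing. With no background subtracted they were 0.46 for DBP100 and 0.60 for DBP500, and in the authors' processed values 0.47 and 0.62. DBP500 litters stood above DBP100 litters by 0.33, with no test, but by 0.02 within replicates 1 to 4 and by 0.73 within replicates 5 to 7, and by 0.17 to 0.51 with 1 array left out. Within the array sets the DBP500 difference was 1.04 ± 0.39 (replicates 1 to 4) and 1.63 ± 0.45 (replicates 5 to 7).

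At GD20 the Allc signal stood the other way in the DBP500 study and was not detected in the DBP100 study. The 5 DBP500 litters had 4.83, 5.87, 5.52, 5.79 and 5.26, with detection in 2 of 5, against 4.76 to 6.86 with a median of 6.50 and detection in 5 of 6 controls. The groups overlapped, since the lowest control lay below every exposed litter. The difference of -0.74 ± 0.33 had an unadjusted p of 0.0297 but did not pass over all probes (limma, adjusted p = 0.595). It was -0.27 in the authors' processed values and -0.31 with no background subtracted, and ranged from -1.02 to -0.58 with 1 array left out. In the DBP100 study the probe was detected in 0 of 5 DBP100 litters and 0 of 6 controls, so no fold is given. The controls of the 2 GD20 studies, with 5 of 6 and 0 of 6 detected, thus differed in whether the probe was seen at all.

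**Figure D1:**
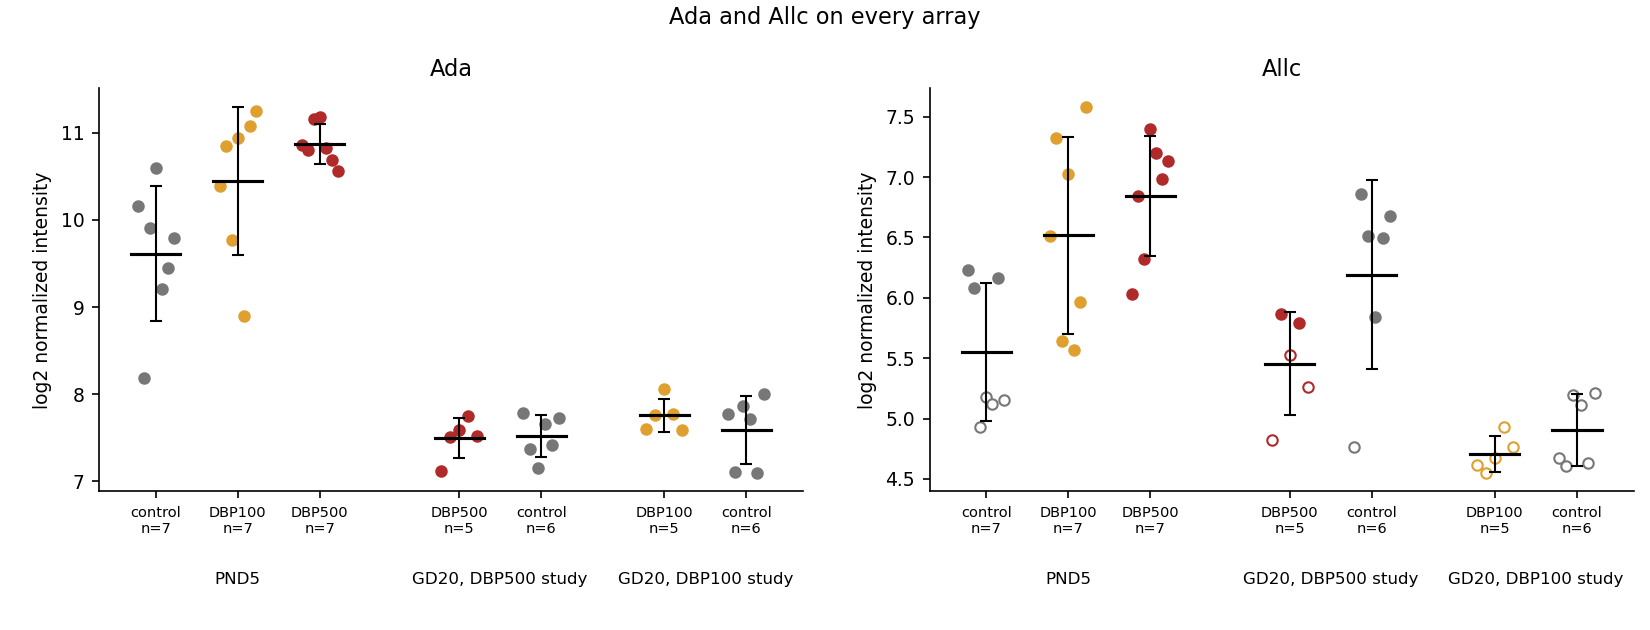
Log2 normalized intensity of Ada (left) and Allc (right) on each of 43 arrays, by group. Each point is a litter, filled where the probe was detected (p under 0.05) and open where it was not, and lines and bars are the group mean and SD. The lowest PND5 litter for Ada, at 8.18, lay above the highest GD20 litter, at 8.05, and Allc was undetected in 11 of 11 litters of the GD20 DBP100 study.

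In the comparison that chose them, Ada ranked 40 and Allc 70 of 13577 probes by the size of the t statistic. Among rises by size Allc ranked 6 and Ada 7. The named probes next to Ada in rank were Kmt5c (-0.55 ± 0.11) and Klk12 (0.85 ± 0.18), and those next to Allc were Swt1 (-0.61 ± 0.14) and Timp3 (-0.80 ± 0.18). In that comparison 3.67% of all tested probes passed an adjusted p under 0.05, and nothing is read from the rank of genes chosen for it.

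The other enzymes around adenosine did not pass in any exposure comparison tested. Adk encodes adenosine kinase, which competes with adenosine deaminase by turning adenosine back into AMP. In GD20 DBP500 litters its level was 10.68, 10.49, 10.45, 10.58 and 10.68, against 10.75 to 11.03 with a median of 10.89 in controls. All 5 exposed litters lay below all 6 controls, as did those of 1.12% of all tested probes. The difference was -0.30 ± 0.12, with an unadjusted p of 0.0210 and an adjusted p of 0.561 in limma. At GD20 DBP100 the Adk difference was 0.00 ± 0.12 (limma, adjusted p = 0.999), and at PND5 it was 0.18 ± 0.11 for DBP100 (limma, adjusted p = 0.595) and 0.13 ± 0.11 for DBP500, the last with no test.

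Nt5e encodes CD73, the ectonucleotidase on the cell surface that makes adenosine from AMP. Its level lay between 10.89 and 12.17 on every array. The exposure differences were 0.15 ± 0.16 for DBP500 and 0.03 ± 0.16 for DBP100 at GD20, and -0.01 ± 0.14 for DBP100 at PND5, with adjusted p-values in limma of 0.969, 0.978 and 0.988. At PND5 DBP500 the difference was 0.11 ± 0.14, with no test.

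Pnp encodes purine nucleoside phosphorylase, which acts on the inosine that adenosine deaminase makes. Its level was high on every array, between 12.03 and 12.88. At GD20 it stood lower by 0.14 ± 0.12 with DBP500 and higher by 0.20 ± 0.12 with DBP100, and at PND5 the differences were 0.07 ± 0.11 for DBP100 and 0.15 ± 0.11 for DBP500. The 3 that could be tested had adjusted p-values in limma of 0.936, 0.587 and 0.876.

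Gda encodes guanine deaminase, which turns guanine into xanthine. It varied widely between PND5 litters, with an SD of 0.70 in controls. Its level ranged from 8.14 to 9.96 in PND5 controls (median 9.13), from 7.90 to 10.41 in DBP100 litters (median 9.11) and from 7.80 to 9.02 in DBP500 litters (median 8.20). DBP500 litters stood lower than controls by 0.64 ± 0.26, a description, and lower than DBP100 litters by 0.69 ± 0.26 (-0.69 in the direction DBP500 minus DBP100), which had an unadjusted p of 0.0116 and did not pass (limma, adjusted p = 0.415). The groups overlapped in both cases. Against controls the Gda difference was -0.93 within replicates 1 to 4 and -0.26 within replicates 5 to 7. At GD20 the Gda difference was -0.39 ± 0.30 for DBP500 (limma, adjusted p = 0.891) and 0.04 ± 0.30 for DBP100 (limma, adjusted p = 0.981). The GD20 SDs were 0.25 (DBP500), 0.21 (its controls), 0.38 (DBP100) and 0.18 (its controls). The wider PND5 groups also enter this SE.

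The salvage enzymes did not pass in any exposure comparison tested. Hprt1 encodes the phosphoribosyltransferase for hypoxanthine and guanine, and Aprt the one for adenine. Hprt1 lay between 11.13 and 12.03 on every array. It differed by 0.17 ± 0.12 with DBP500 and -0.01 ± 0.12 with DBP100 at GD20, and by -0.14 ± 0.11 with DBP100 at PND5, with adjusted p-values in limma of 0.878, 0.990 and 0.716. The Aprt probes lay between 9.84 and 11.09 (ILMN_1364880) and between 12.37 and 13.09 (ILMN_2040879). With DBP100 at PND5 they differed from controls by 0.27 ± 0.13 (ILMN_1364880, unadjusted p = 0.0408, limma adjusted p = 0.450) and 0.12 ± 0.07 (ILMN_2040879, limma adjusted p = 0.603). With DBP500 at PND5, with no test, they stood at 0.28 and 0.08 and Hprt1 at -0.13. At GD20 the Aprt differences lay between -0.09 and 0.04.

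Counted over the members, 0 of 9 probes passed for DBP500 at GD20, where 0.302% of all tested probes did, and 2 (Allc and Adk) had an unadjusted p under 0.05, as did 7.39% of all probes. For DBP100 at GD20, 0 of 9 passed against 0.589% of all probes, and 0 had an unadjusted p under 0.05, as did 11.4% of all probes. For DBP100 at PND5, 0 of the 7 probes tested passed against 0.081%, and for DBP500 against DBP100 at PND5, 0 of 7 against 0.0516%, each with 1 probe under an unadjusted 0.05 (Aprt and Gda), as were 10.4% and 9.03% of all probes. The difference between the 2 GD20 dose effects passed for 0 of 9 members, against 0.133% of all probes, and 0 had an unadjusted p under 0.05, against 10.7%. With so few calls over the whole array, 0 of 7 or 0 of 9 is near the background.

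**Figure D2:**
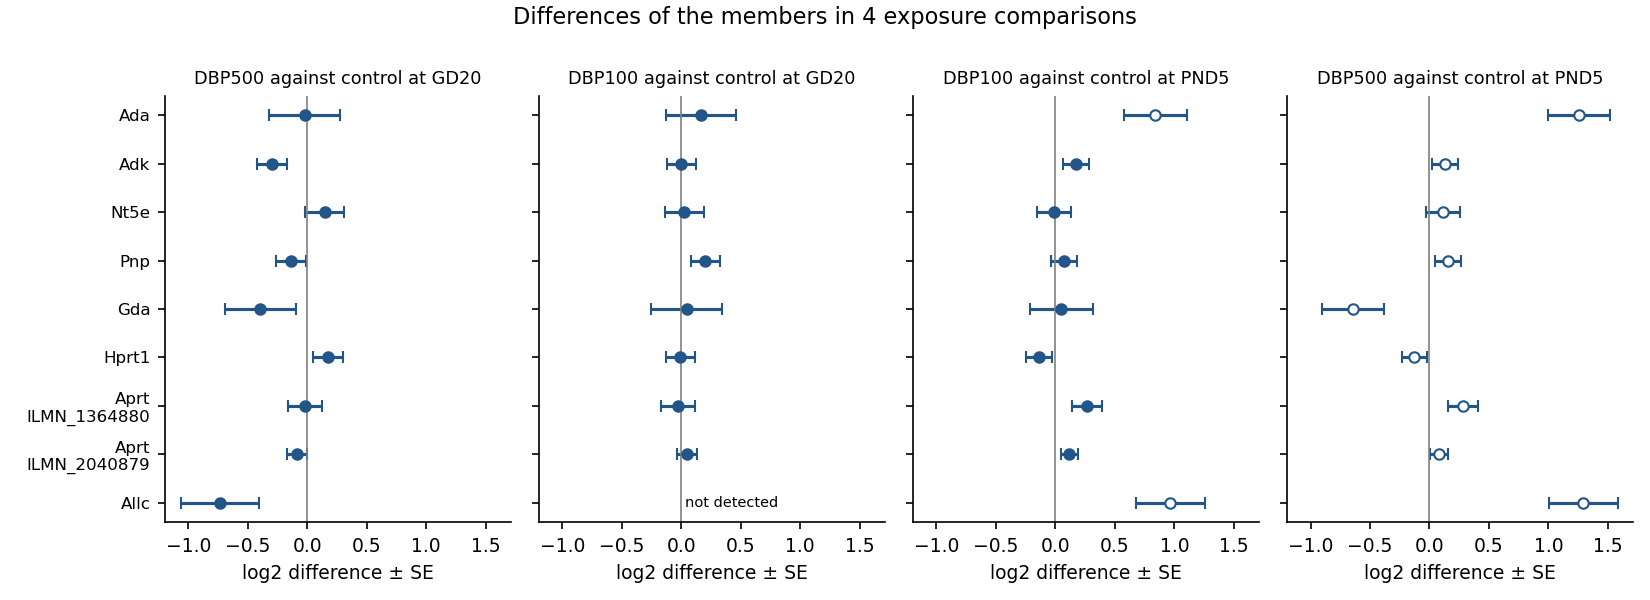
Log2 difference ± SE of each member probe, exposed minus control, in 4 comparisons. Filled points were tested and open points are a description, and Allc was not detected in the GD20 DBP100 study. Ada and Allc stand at 1.26 and 1.29 for DBP500 at PND5, while the other 7 probes lie between -0.64 and 0.28 there.

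Several members differed between the ages. PND5 controls (n = 7) were compared with the mean of the 2 GD20 control groups (n = 12). Each age was measured in studies of its own, so age and study cannot be told apart. Ada was higher in PND5 controls by 2.06 ± 0.23 (4.17-fold), with 8.18 to 10.59 in PND5 controls against 7.09 to 8.0 in GD20 controls. The groups did not overlap, as was the case upward for 10.8% of all tested probes. Allc differed by 0.00 ± 0.26, though its GD20 mean joins the 2 control groups that differed in detection. Both are a description, because the PND5 controls had a part in choosing these 2 genes.

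Of the 7 probes tested for age, 4 passed (57.1%), 2 higher and 2 lower, against 61.6% of all tested probes (26.7% higher and 34.9% lower), so the members changed about as often as the array at large. Adk fell in PND5 controls by 0.64 ± 0.10 (-0.64, limma adjusted p = 2.78e-07), with 9.91 to 10.38 in PND5 controls against 10.38 to 11.03 in the GD20 controls, and 6 of the 7 PND5 litters lay below all 12. Gda rose by 1.03 ± 0.23 (limma, adjusted p = 1.86e-04), with 8.14 to 9.96 in PND5 controls against 7.52 to 8.48 in GD20 controls. Hprt1 rose by 0.34 ± 0.10 (limma, adjusted p = 0.00249), though its difference was -0.26 under a median shift of the arrays. The Aprt probe ILMN_2040879 fell by 0.39 ± 0.07 (-0.39, limma adjusted p = 1.73e-06), and its 7 PND5 controls lay below all 12 GD20 controls, as was the case for 10.2% of all tested probes. The other Aprt probe differed by -0.09 ± 0.11 (limma, adjusted p = 0.509), so the 2 probes of this gene disagree, while under a median shift both were lower in PND5 controls (-0.59 and -1.03). Nt5e (0.19 ± 0.13, limma adjusted p = 0.194) and Pnp (0.03 ± 0.10, limma adjusted p = 0.769) did not pass.

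The direction of small age differences depends on how the arrays are scaled. Between the ages, the median over all tested probes was -0.09 in these values and -0.28 when each array was only shifted to a common median. Relative to those medians Ada stood at 2.15 and 2.03, Gda at 1.13 and 0.99, Adk at -0.55 and -0.90 (-1.17 before the median is taken off), and the Aprt probe ILMN_2040879 at -0.30 and -0.75. Hprt1 stood at 0.43 and 0.02, Pnp at 0.13 and -0.30, and Nt5e at 0.29 and -0.13. Before the median is taken off, all 3 were positive in the first scaling and negative in the second (Nt5e -0.41, limma adjusted p = 0.0573), so none of them has a settled direction.

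**Figure D3:**
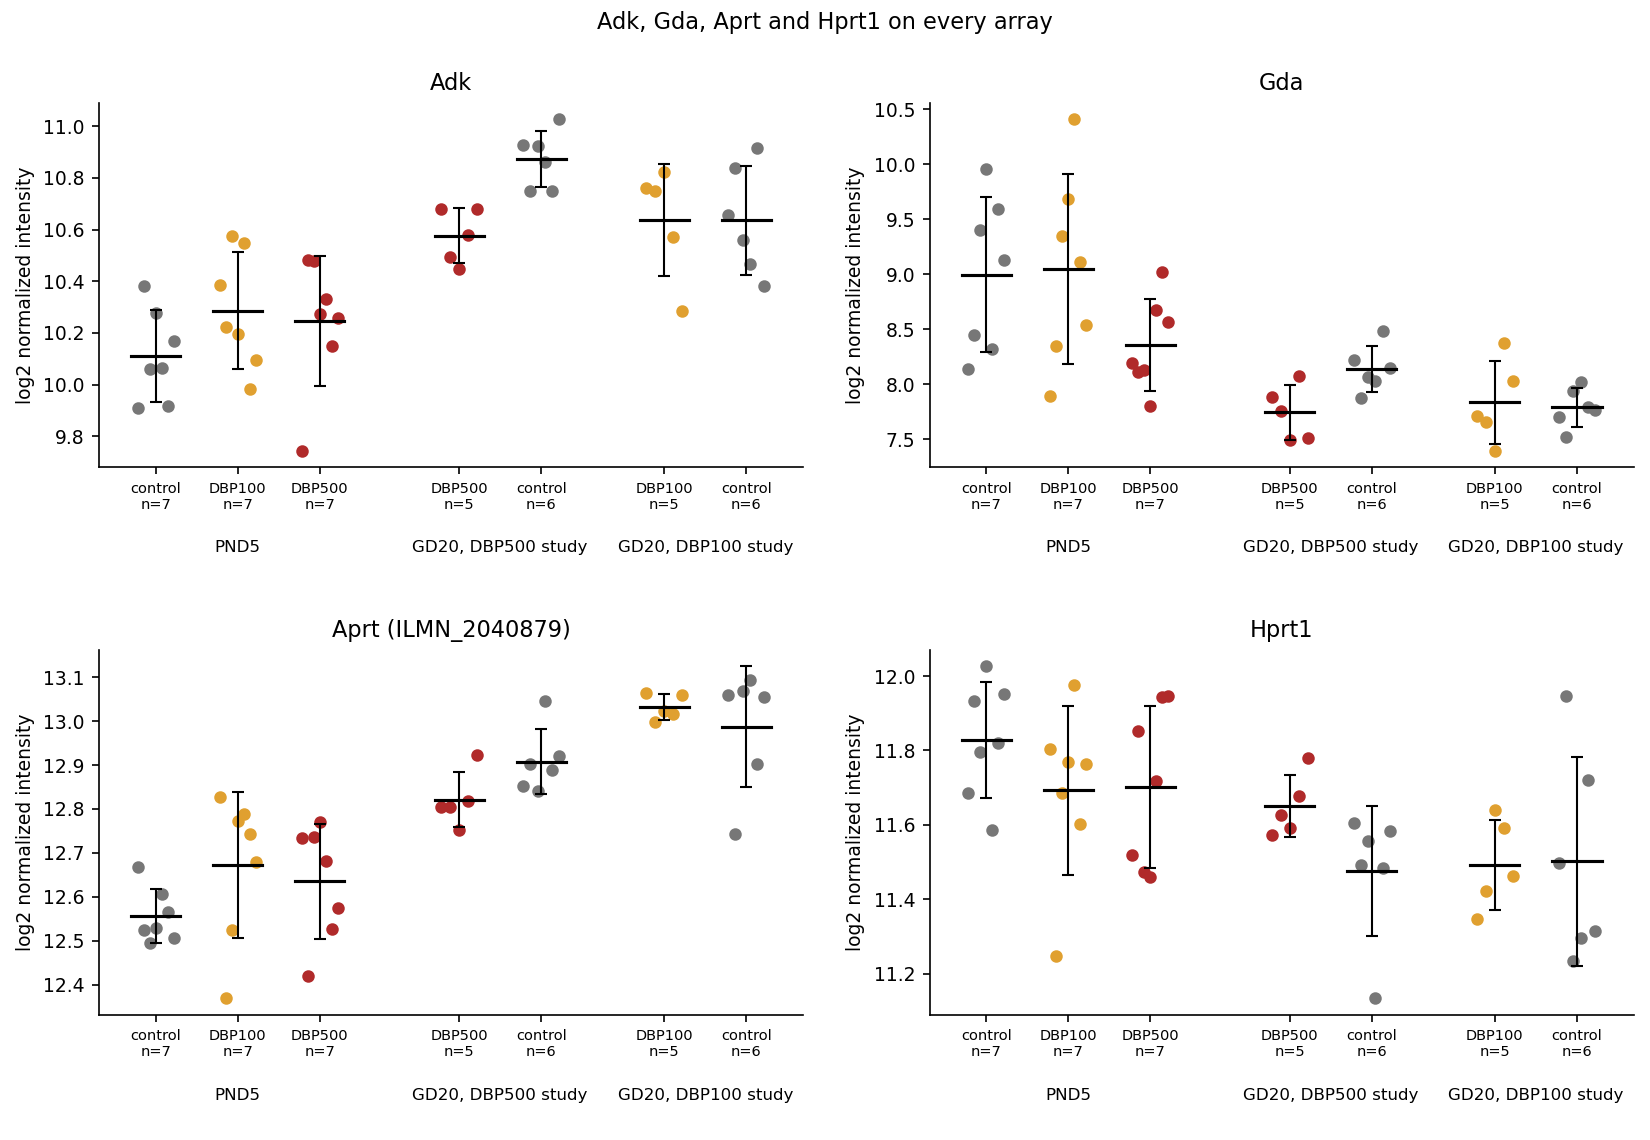
Log2 normalized intensity of Adk, Gda, Aprt (ILMN_2040879) and Hprt1 on each of 43 arrays, by group, with the group mean and SD. Adk and Aprt were lower and Gda higher in PND5 controls than in GD20 controls, while Hprt1 (0.34 higher) turned to -0.26 under a median shift.

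The rest of the pathway was described with 4 lists of 59 genes, of which 39 could be tested. For DBP500 and for DBP100 at GD20, 0 of 39 passed, where 0.302% and 0.589% of all tested probes did. For DBP100 against control and for DBP500 against DBP100 at PND5, 0 of 39 passed, against 0.081% and 0.0516%. These counts are near those shares. For DBP500 at PND5, 2 of 39 passed (5.13%, against 3.67% of all probes): Entpd5, an intracellular nucleoside diphosphatase, stood lower by 0.93 ± 0.20 (7.02 in DBP500 litters against 7.95 in controls, limma adjusted p = 0.00872), and Guk1, guanylate kinase, was detected in 3 of 7 DBP500 litters and 0 of 7 controls, too dim for a fold. That count was 1 to 3 with 1 array left out and 0 under a median shift. The median difference over the 39 was 0.07, against 0.02 over all tested probes.

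Between the ages, 21 of the 39 passed, 12 higher and 9 lower in PND5 controls (53.8%, against 61.6% of all probes). Of the 21, 2 changed sign under a median shift, where 8 genes passed higher and 16 lower. Among 16 other breakdown genes 5 rose and 2 fell. Uox, urate oxidase, rose by 3.17 ± 0.16 (9.02-fold, limma adjusted p = 1.70e-20), or by 2.05 with no background subtracted. It lay between 8.69 and 9.50 in PND5 controls, against 5.23 to 6.49 in the 12 GD20 controls, where 10 of 12 detected it. Enpp1, an ectoenzyme that cleaves ATP, rose by 1.64 ± 0.14 (limma, adjusted p = 1.39e-13). Entpd2, an ectonucleotidase for ATP, rose by 1.39 ± 0.12 (limma, adjusted p = 8.59e-14), or by 0.89 under a median shift. Nt5c3a, a cytosolic 5′-nucleotidase, was higher by 0.79 ± 0.08 (limma, adjusted p = 8.11e-12) but by only 0.21, short of the threshold, under a median shift.

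Among 8 genes of purine synthesis 4 fell and 2 rose, with a median of -0.30 for the list against -0.09 for all probes. The 4 that fell were Atic (by 0.70 ± 0.11), which closes the purine ring, Prps2 (by 0.65 ± 0.14), which makes the ribose phosphate donor, Adsl (by 0.53 ± 0.11) and Paics (by 0.38 ± 0.07), enzymes of the middle steps. Their adjusted p-values in limma were 5.60e-07, 6.93e-05, 4.89e-05 and 1.68e-05, and they stayed below the median of all probes under a median shift. The size varied: with no background subtracted Atic stood at -0.33, and under a median shift Prps2 stood at -1.15, Adsl at -0.94 and Paics at -0.98. The 2 that rose, Gmps and Adss2, had negative differences under a median shift.

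Among 8 adenosine receptors and nucleoside transporters 2 rose and 3 fell. Adora2a, the adenosine A2a receptor, fell by 1.35 ± 0.18 (limma, adjusted p = 2.67e-08), with 6.75 to 7.45 in PND5 controls against 7.47 to 9.06 in GD20 controls. Slc28a3, a concentrative nucleoside transporter, was detected in 7 of 7 PND5 controls and 0 of 12 GD20 controls and was at least 1.94-fold higher (limma, adjusted p = 8.77e-13), taking the dim group at the lowest signal detected on each array. Slc29a3, a transporter of lysosomes, rose by 0.53 ± 0.08 (limma, adjusted p = 2.25e-07), but by 0.04 under a median shift. Slc29a2, an equilibrative transporter, fell by 0.45 ± 0.15 (limma, adjusted p = 0.0115), with detection in 4 of 7 PND5 and 9 of 12 GD20 controls, and stood at -0.19 with no background subtracted.

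Among 7 genes for sources of adenosine and for deoxynucleoside kinases 3 rose and 0 fell. Ahcyl1, a relative of adenosylhomocysteine hydrolase, rose by 1.28 ± 0.22 (limma, adjusted p = 3.76e-06), or by 0.75 with no background subtracted. Dpp4, the cell-surface peptidase that binds adenosine deaminase in humans, rose by 0.73 ± 0.13 (limma, adjusted p = 4.38e-06), or by 0.39 with no background subtracted. Dck, deoxycytidine kinase, was detected in 6 of 7 PND5 controls and 0 of 12 GD20 controls and was at least 1.21-fold higher (limma, adjusted p = 1.07e-04).

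**Figure D4:**
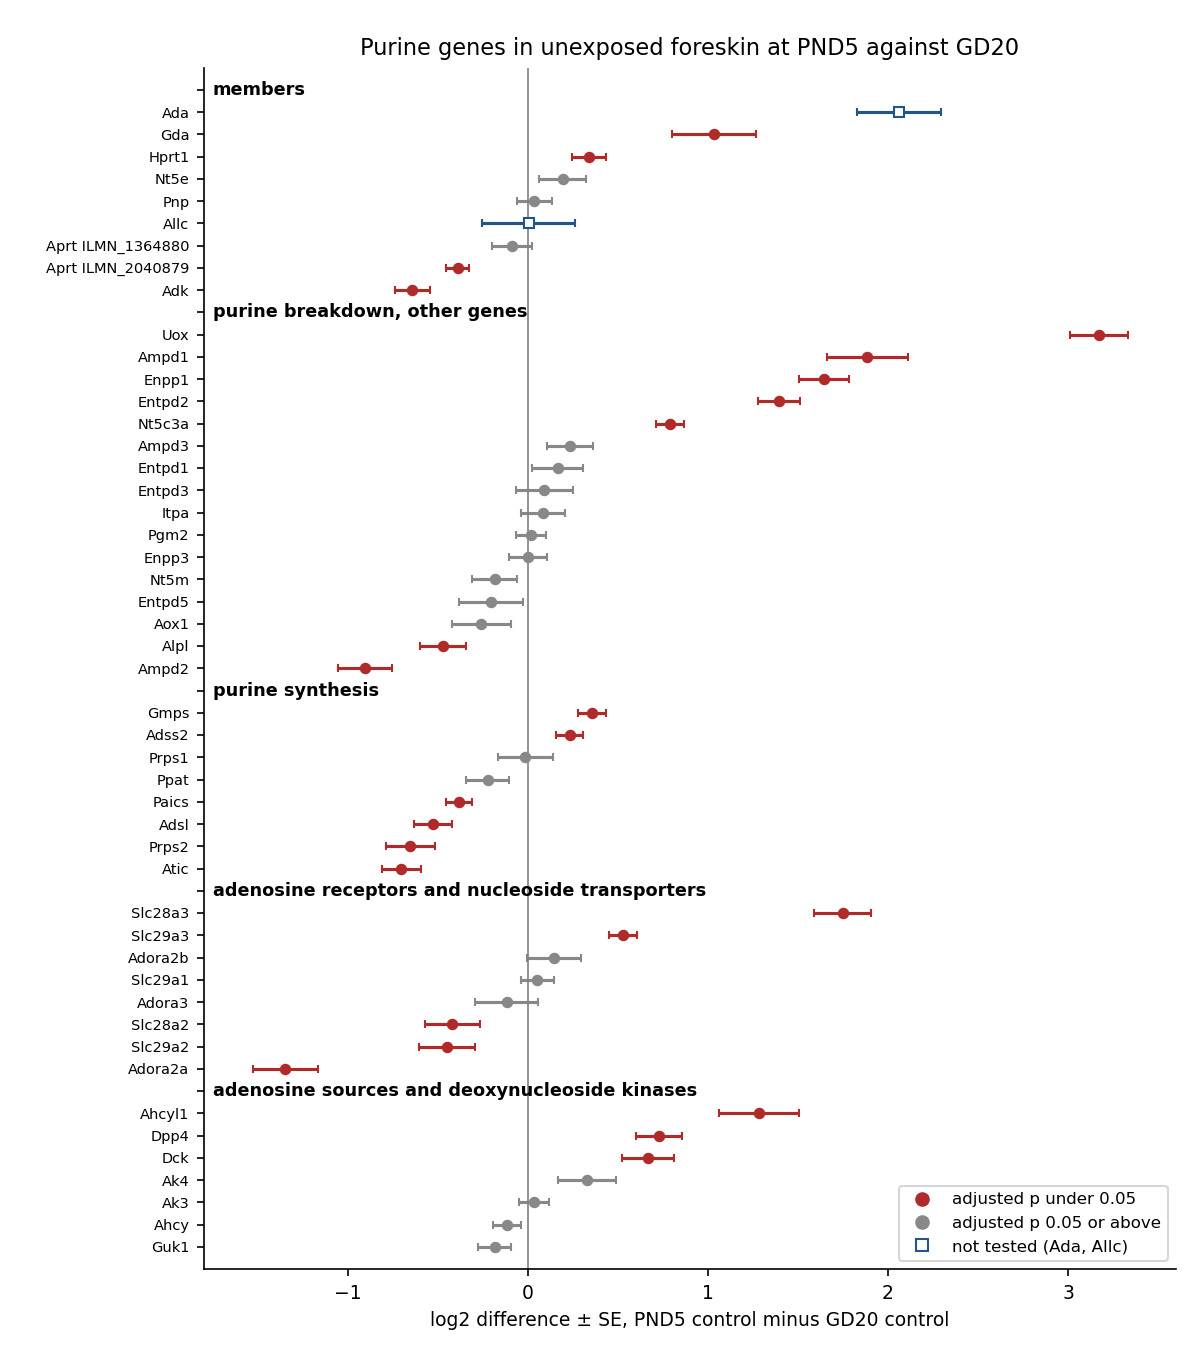
Log2 difference ± SE, PND5 control minus GD20 control, for the 9 member probes and the 39 tested pathway genes, by list. Red points passed an adjusted p under 0.05 and open squares (Ada and Allc) have no test, and the values of Slc28a3 and Dck are set against a group where 0 of 12 arrays detected them. Uox (3.17) and Ada (2.06) lie farthest to the right.

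Adenosine deaminase is abundant in T lymphocytes and in some stratified epithelia, so their markers were read beside Ada. Of 6 T lymphocyte genes 6 stood higher in PND5 DBP500 litters than in controls, with a median difference of 0.21. Of the 6, 0 passed, where 3.67% of all tested probes did. With DBP100 at PND5, 6 of 6 also stood higher (median 0.20) and 0 passed, where 0.081% of all probes did. The summed level of these 6 genes ranged from 7.65 to 7.96 in PND5 controls, from 7.67 to 9.06 in DBP100 litters and from 7.90 to 8.24 in DBP500 litters. Of the 6, 3 were detected in no PND5 control and 1 in no PND5 DBP500 litter. In each of these 2 groups 0 of the 6 were detected in every litter, so the count and the sum rest partly on background signal. Cd3e, a subunit of the T cell receptor complex, was detected in 2 of 7 DBP500 litters and 0 of 7 controls. Zap70, a kinase of that receptor, was detected in 0 of 7 of either. Summed levels of 11 late epidermal genes were 15.88 to 16.25 in DBP500 litters and 15.92 to 16.24 in controls at PND5, with 6 of the genes standing higher. Of the 11, 1 passed, where 3.67% of all probes did. This was Casp14, a caspase of cornifying keratinocytes, which fell by 0.95 ± 0.18 in DBP500 litters (limma, adjusted p = 0.00284). Between the ages, 9 of these 11 rose, with a median of 2.12 and summed levels of 15.92 to 16.24 in PND5 controls against 13.02 to 14.68 in GD20 controls, where 26.7% of all probes rose. Between the ages 7 of 8 skeletal muscle genes and 5 of 7 fibroblast genes also rose, and 5 of 5 erythroid genes fell, with a median of -1.39, where 34.9% of all probes fell. The fibroblast median was only 0.39. The direction of small age differences depends on the scaling, and no median shift values are given for the marker lists. Of 7 fibroblast genes 6 stood lower than in controls both with DBP100 (median -0.09) and with DBP500 (median -0.22) at PND5. Of the 7, 0 passed at either dose, where 0.081% and 3.67% of all probes did. The summed level of these 7 genes ranged from 16.56 to 16.96 in PND5 controls, from 16.62 to 16.85 in DBP100 litters and from 16.43 to 16.85 in DBP500 litters. Of 5 erythroid genes 5 stood higher in DBP500 litters at PND5, with a median of 0.34 and summed levels of 14.80 to 15.70 in DBP500 litters against 14.08 to 15.23 in controls. Of the 5, 1 passed, where 3.67% of all probes did: Hbb, a beta globin, which rose by 0.70 ± 0.18 (limma, adjusted p = 0.0220). With DBP100 at PND5, 5 of 5 erythroid genes also stood higher (median 0.29) and 0 passed, where 0.081% of all probes did. At GD20 with DBP500, 11 of 11 late epidermal genes (median 0.35) and 5 of 5 erythroid genes (median 0.13) stood higher than in controls. There 7 of 7 macrophage genes (median -0.20) and 7 of 8 skeletal muscle genes (median -0.81) stood lower. In each of these lists 0 passed, where 0.302% of all probes did, and the other lists stood in both directions. The part of these cells in the Ada, Allc and Adk values was not tested.

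Litters of 1 group were then compared with each other, after the mean of the group had been taken off each array. Each of 9 cell type lists was summarized as the mean of the log2 deviations of its genes, each weighted alike. Over 43 arrays, none of the 18 pairings of Ada or Allc with these means passed (permutation test with 100000 resamples). Of the 18, 0 had an unadjusted p under 0.05. The r ran from -0.30 (Ada with T lymphocyte genes) to 0.31 (Ada with endothelium). Allc and each T lymphocyte gene were undetected on some arrays, so their pairings rest partly on background signal. Of 28 pairs of members, 1 passed for Pearson's r: Adk and Nt5e, which use and make adenosine, varied together (r = 0.53, permutation p = 0.00102, adjusted p = 0.0286). Spearman's rho was 0.49 (permutation p = 0.00303, adjusted p = 0.0754) and did not pass. The r was 0.49 without the 2 arrays farthest out. It was 0.88 in the GD20 DBP100 study, 0.32 in the GD20 DBP500 study and 0.30 at PND5. In the GD20 DBP100 study Allc, which was not detected there, had r = -0.88 with Nt5e and -0.75 with Adk. Values of this size in that study thus also arose with a probe at background. How often other pairs of probes reach such an r was not tested. Ada and Adk, which compete for adenosine, had r = -0.41 and rho = -0.34 (permutation p = 0.0112 and 0.0485, adjusted p = 0.115 and 0.170), and r was -0.27 without the 2 arrays farthest out. Ada and Allc did not pass (r = 0.22, rho = 0.20, permutation p = 0.286 and 0.267, adjusted p = 0.534 and 0.499), with r = 0.68 in the GD20 DBP100 study, where Allc was not detected, -0.17 in the GD20 DBP500 study and 0.27 at PND5.

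**Figure D5:**
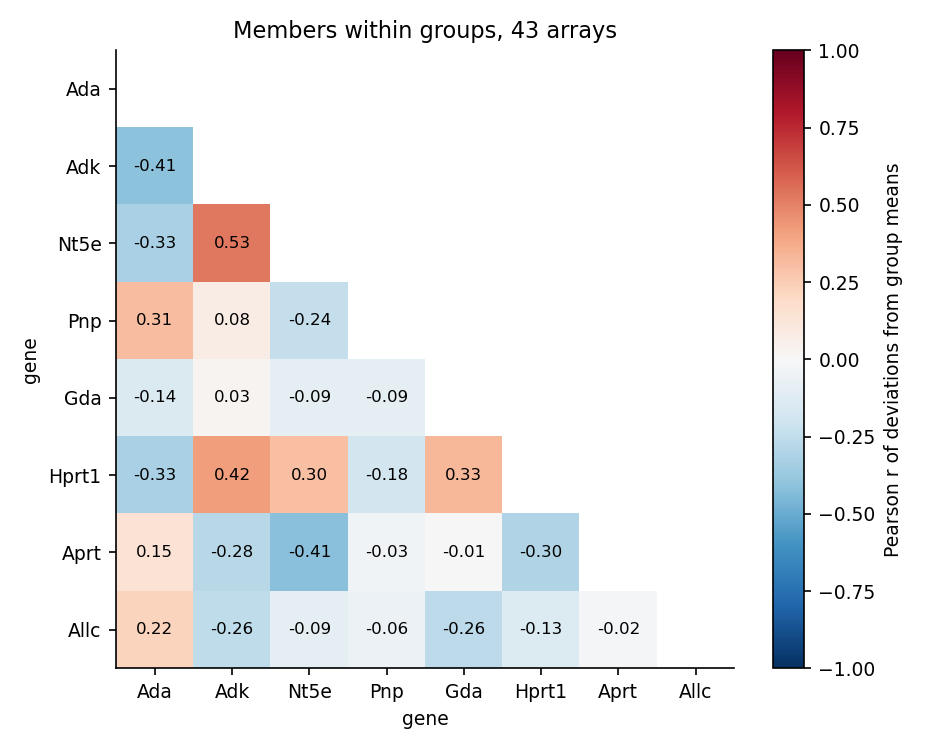
Pearson r between members over 43 arrays after the group mean was taken off, for 28 pairs of 8 genes with Aprt at its brighter probe. Adk with Nt5e (0.53) is the only pair that passed, and Ada with Allc stands at 0.22.

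The genes most like Ada in this measure, given with no p, were Pecr (r = 0.69), a reductase of fatty acid chain elongation in peroxisomes, Gdf1 (r = 0.66), a growth factor of the TGF-beta family, Atoh8 (r = 0.66), a transcription factor, Adam15 (r = 0.65), a membrane metalloprotease, and Hoxb7 (r = 0.64), a homeobox factor. For Pecr the r was 0.79 at PND5, 0.63 in the GD20 DBP100 study and 0.00 in the GD20 DBP500 study, and for Hoxb7 it was 0.65, 0.72 and 0.75 in the same order. Those most like Allc were Efnb3 (r = 0.56), an ephrin, Emx2 (r = 0.54), a homeobox factor, Fxyd4 (r = 0.54), a regulator of the sodium pump, Nhlrc2 (r = 0.54) and Acsbg1 (r = 0.52), an acyl-CoA synthetase. Allc was detected on 24 of 43 arrays, so these r rest partly on background signal. In the GD20 DBP100 study, where Allc was not detected, they were 0.53, -0.06, 0.59, -0.09 and 0.18 in the same order. With the mean of each PND5 array set taken off, 4 of the 5 genes for Ada and 2 of the 5 for Allc stayed among the first 5.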

How the data were processed

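Foreskin RNA from 43 litters was measured on Illumina RatRef-12 beadchips, with each litter on an array of its own. Per the file headers, the deposited table of non-normalized values holds an intensity with its detection p-value at each of 22523 probes. A second deposited table gives the authors' processed intensity, normalized within each study. The submitters' processing notes name limma.

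Background was estimated from the detection p-values by limma 3.58.1 (R 4.3.3), followed by an offset of 16, quantile normalization over 43 arrays and log2. Probes with detection p under 0.05 on at least 5 arrays were tested (13577, 60.3%). One mean per group and 1 spread per probe were fitted over the 7 groups, and spreads were moderated (5.48 prior degrees of freedom). Each SE and interval of this fit thus uses the spread of all groups, which can differ from that of the groups compared. Two-sided p-values were adjusted by Benjamini-Hochberg over all probes of a comparison, with a threshold of 0.05. A detection p-value under 0.05 counts as detected. Intervals are at 95%. Precision is limited by how many arrays there are. The scripts were tested on simulated data. Of the probes, 13793 carried 1 symbol and 8730 none.

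The members and lists were chosen with earlier results of these data known. Because PND5 DBP500 and control arrays chose the members, that comparison has no test for any member, and Ada and Allc have none in any comparison with PND5 arrays. Every member is named. Of each pathway list, up to 4 genes passing in a comparison are named, by smallest p, and Gmps, Adss2 and the cell markers Cd3e, Zap70, Casp14 and Hbb were added after their values were seen. The 5 genes of highest r are named as most like Ada and Allc. Each list gene is given by its tested probe of highest mean, and so is Aprt in correlations, which used Python 3.11.15 and scipy 1.17.1. Alternatives were median shift, no background correction, an offset of 50, the authors' values, no filter, only the arrays compared, the replicate block, the PND5 array sets and leaving out each array.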

Additional observations from a re-analysis of the deposited data

Results flagged for a closer look

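Of 63 combinations of a probe and a group, 4 held 1 litter far from the others of its group, where chance alone gives about 1 in 20. The third GD20 DBP500 litter had a Pnp level of 12.5, against 12.1 to 12.2 in the other 4. The fifth GD20 DBP500 litter had a level of 10.4 for the Aprt probe ILMN_1364880, against 9.84 to 9.98 in the others. In the controls of that study, the sixth litter had 10.2 for the same Aprt probe, against 10 to 10.1 in the others. The fourth control litter of that study had 11.1 for Hprt1, against 11.5 to 11.6 in the others. In the GD20 DBP500 comparison 0 members passed with these litters or without any one of them.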

How the results depend on the processing

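No member passed in any exposure comparison tested, under any of the alternatives run, whether 1 array was left out, the scaling changed or only the arrays compared were fitted. For DBP500 at PND5 the Ada difference of 1.26 lay between 1.02 and 1.42 with 1 array left out and between 1.09 and 1.29 under the other settings. The Allc difference of 1.29 lay between 1.19 and 1.43 with 1 array left out, but fell to 0.599 with no background correction and to 0.621 in the authors' processed values, and it was 0.871 with an offset of 50. For DBP100 at PND5 the ranges with 1 array left out were 0.60 to 1.10 for Ada and 0.79 to 1.12 for Allc, and Allc was 0.458 with no background correction, 0.473 in the authors' values and 0.650 with an offset of 50. For Allc at GD20 DBP500, the difference of -0.74 ranged from -1.02 to -0.27 and its adjusted p in limma from 0.250 to 1.0. Under a median shift the age differences of Pnp (-0.575, limma adjusted p = 0.00181), Hprt1 (-0.255, limma adjusted p = 0.202) and Nt5e (-0.405, limma adjusted p = 0.0573) turned negative, and the Aprt probe ILMN_1364880 passed (-0.594, limma adjusted p = 7.42e-04). Of 1440 values of single members under an alternative, 98 had the other sign.

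The counts over all probes behind the background shares were less stable. The count for DBP500 at PND5, 498, was 34 under a median shift, 128 with only the arrays compared, 910 within PND5 replicates 1 to 4, 0 within replicates 5 to 7, and 190 to 730 with 1 array left out. For DBP100 at GD20 it was 80, with 152 in the authors' values, 0 with only the arrays compared and 0 to 466 with 1 array left out. For DBP500 at GD20 it was 41, with 18 under a median shift and 22 to 40 with 1 array left out. The counts of 11 (DBP100 at PND5), 7 (DBP500 against DBP100, 381 and 1 within those sets) and 18 (the GD20 dose difference) ranged over 0 to 71, 0 to 14 and 0 to 126 with 1 array left out. Pathway list genes passing for DBP500 at PND5, 2 here, ranged from 0 to 5. The causes were not tested. Calls split 43.3% higher between the ages, and 29% under a median shift.

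With the replicate number as a block, 0 members passed in any exposure comparison tested, and the counts over all probes were 0 for both GD20 comparisons, 31 for DBP500 at PND5 and 0 for the other PND5 comparisons. The Ada and Allc differences at PND5 stayed 1.26 and 1.29 under the block. Deviations of same-numbered arrays from their group means correlated between -0.27 and 0.18, with the best match to the own number in 0 to 2 of 5 or 7 cases, so the numbers were not taken to pair litters. The authors' processed values were not run for the age comparison, since each study was normalized on its own. Signal over background limits Allc, detected on 24 of 43 arrays.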
